A study of Mus musculus with 18 samples.

Results

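AMPA and NMDA receptors are the ionotropic glutamate receptors that carry most fast excitatory transmission in the forebrain, and the 10 genes named for this account encode their subunits: Gria1, Gria2, Gria3 and Gria4 for the AMPA type, and Grin1, Grin2a, Grin2b, Grin2c, Grin2d and Grin3a for the NMDA type. Members were chosen by gene symbol, with earlier results of these data known. Every probe set that the array annotation gives to 1 of these genes and to no other gene was taken. Of the 10 genes, 9 had such a probe set, out of 17097 genes on the array, and they were read by 19 probe sets, each of which measures a stretch of a transcript. Grin1 was matched to no probe set and is not analysed here. All 9 symbols were found in the RefSeq gene table.

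The mice were 3 controls (CTRL) and 3 carriers of the transgene TgCPEB4∆4, all aged 6 weeks, with cortex and striatum of each mouse dissected as 1 piece. TgCPEB4∆4 expresses a form of CPEB4, a protein that binds the 3′ ends of mRNAs and regulates their poly(A) tails, without a small neuronal exon. The driver of the transgene, the background of the controls and the litters of the mice are stated in none of the sources used here. Each mouse gave 3 arrays: total RNA (INPUT), RNA released from a poly(U) column at 25% formamide, rich in short tails (WASH), and RNA released at 90% formamide, rich in long tails (ELUTED). Values are log2 expression per probe set. The difference ELUTED minus WASH within a mouse is called the tail ratio here. A positive tail ratio places a transcript toward the long-tail fraction relative to the other transcripts on those arrays, and it is not a tail length in nucleotides.

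AMPA receptors open briefly when glutamate binds and set the strength of most excitatory synapses. NMDA receptors need glutamate together with glycine or D-serine, pass calcium, and are blocked by magnesium at rest, which makes them detectors of joint activity on both sides of the synapse. Both are tetramers, so the mix of subunits sets the properties of the channel, and several of their mRNAs are regulated after transcription, by editing, splicing and translation in dendrites. A long poly(A) tail is generally linked to stability and translation of an mRNA, and CPEB proteins are known to shorten or lengthen tails on particular targets.

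The labelled tissue was checked against marker genes. All 4 general neuronal markers, all 3 inhibitory markers and all 3 measured striatal markers stood above the nonspecific controls on all 6 total RNA arrays, and both cerebellar granule cell markers stood above them on none. Of the 2 markers of excitatory neurons, Slc17a7 stood above them on all 6 of these arrays and the cortical gene Neurod6 on none. Of the 2 thalamic markers, Slc17a6 stood above them on 5 of the 6 and Lhx9 on none. Here the nonspecific level of an array is the highest of its 23 nonspecific control probe sets. That level lay between 7.07 and 7.52 on total RNA arrays and between 5.43 and 6.29 on the fraction arrays, except for the ELUTED array of control mouse 1, where it was 7.30. The spread of the tail ratio over all probe sets also differed between mice, with SDs of 1.19, 0.593 and 0.859 in control mice 1, 2 and 3 and of 0.614, 0.621 and 0.388 in transgenic mice 1, 2 and 3. An array has no depth in reads, so precision is set by the 3 mice per genotype. Each mouse gave 1 sample of each preparation, and in tissue RNA fewer cells of a type and less RNA per cell cannot be told apart.

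In control mice the NMDA receptor subunits Grin2b and Grin2a lay toward the long-tail fraction, Gria3 lay there less far, and Gria2 was divided between its probe sets. Of the 19 probe sets, 18 passed the filter on low values and were tested. Of these 18, the mean tail ratio of control mice passed the test (limma, Benjamini-Hochberg adjusted p under 0.05 over all 27022 probe sets tested) for 7, and 6 of the 7 were above 0. Over all probe sets tested, 63% passed, 27.6% above 0 and 35.4% below 0, so that 7 of 18 is a smaller share than the array's own. The median tail ratio in control mice was 0.08 over the 18 probe sets and -0.07 over all probe sets. By genes, each taken at its probe set with the highest mean, 3 of 9 passed above 0 and 0 below, against 20.5% and 39.9% of all genes. Centring each array on its median moved the median of all control tail ratios by -0.12 and the split of the members to 6 above and 3 below. Quantile normalization of the deposited values moved that median by 0.15 and the split to 7 above and 1 below.

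**Figure D1:**
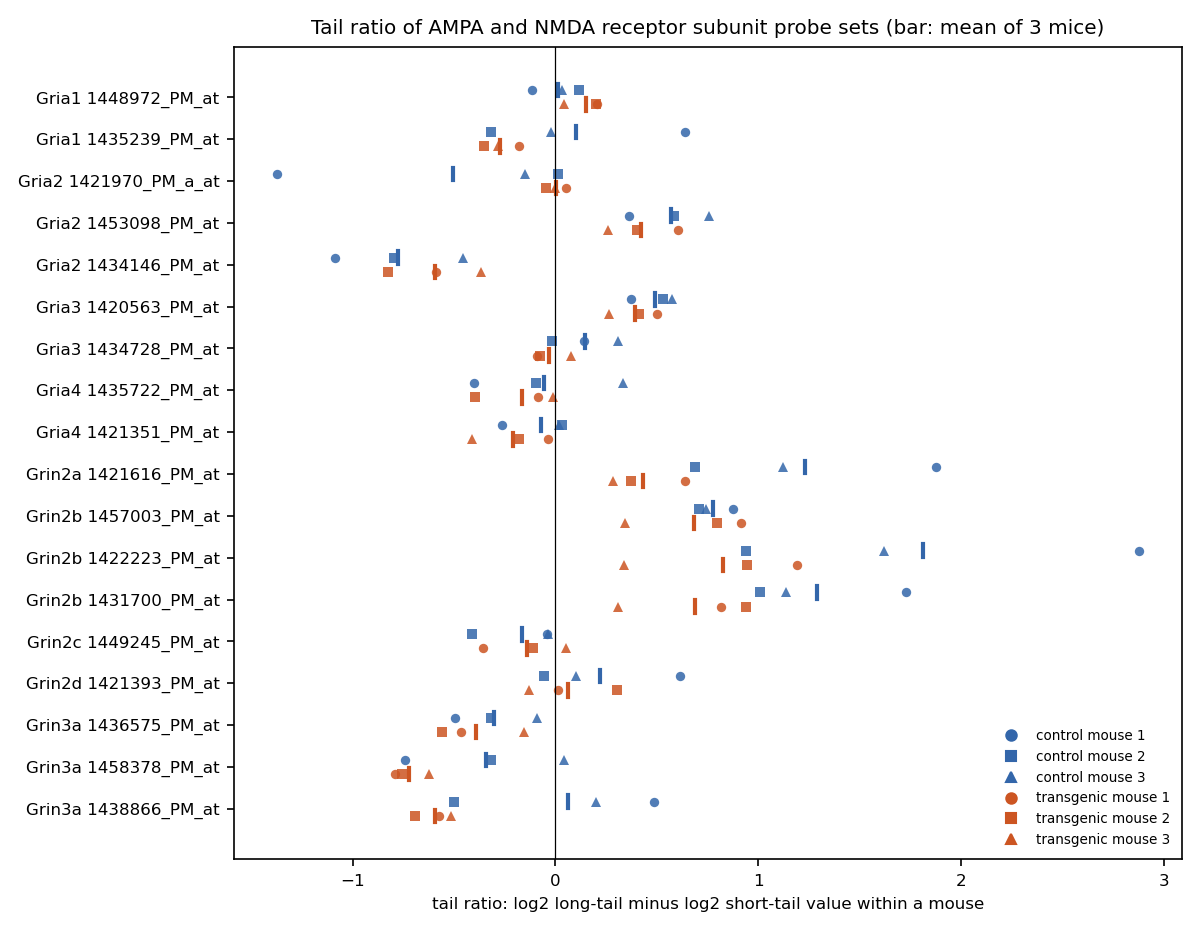
Tail ratio (log2 ELUTED minus log2 WASH within a mouse, horizontal axis) of the 18 receptor probe sets that were tested, with 1 point per mouse, blue for control and orange for transgenic mice, and a bar at the mean of 3 mice. All 6 mice lie right of 0 for Grin2a, the 3 Grin2b probe sets, Gria2 1453098_PM_at and Gria3 1420563_PM_at, and all 6 lie left of it for Gria2 1434146_PM_at and Grin3a 1436575_PM_at.

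Grin2b encodes GluN2B, the glutamate-binding NMDA subunit that predominates early in development and remains abundant in the adult forebrain. Its 3 probe sets were all above 0 in all 6 mice. Probe set 1422223_PM_at had tail ratios of 2.88, 0.94 and 1.62 in control mice 1, 2 and 3 and of 1.19, 0.95 and 0.34 in transgenic mice 1, 2 and 3. Control mouse 1 was far higher than the others, and the genotypes overlapped. The control mean was 1.81 ± 0.32 (SE, n = 3), which is 3.51-fold more signal in ELUTED than in WASH (limma, adjusted p = 0.00228), and without control mouse 1 it was still 1.28. Every SE of a mean tail ratio given here is that of the limma model, which estimates 1 spread for both genotypes together. For this probe set the SD was 0.98 over control mice and 0.44 over transgenic mice. The transgenic mean of 0.82 ± 0.32 did not pass (limma, adjusted p = 0.0825).

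The other two Grin2b probe sets gave the same direction with less spread. For 1431700_PM_at the tail ratios were 1.73, 1.01 and 1.13 in control mice and 0.82, 0.94 and 0.31 in transgenic mice. Each of the 3 control mice was above each of the 3 transgenic mice. The means were 1.29 ± 0.18 in control mice (SE, n = 3; limma, adjusted p = 0.00101) and 0.69 ± 0.18 in transgenic mice (limma, adjusted p = 0.0256). On WASH arrays this probe set was above the nonspecific level in 2 of 3 control and 1 of 3 transgenic mice. In total RNA it was above that level in 1 of 3 and 0 of 3. On the ELUTED array of control mouse 1 it read 7.31 against a nonspecific level of 7.30. Its tail ratio thus rests partly on signal at background. The probe set with the highest mean, 1457003_PM_at, was above background on all 18 arrays. It had tail ratios of 0.88, 0.71 and 0.74 in control mice and 0.91, 0.79 and 0.34 in transgenic mice. Here the genotypes overlapped fully, and only transgenic mouse 3 stood apart, below the rest. Both means passed, at 0.78 ± 0.14 in control mice (SE, n = 3; limma, adjusted p = 0.00261) and 0.68 ± 0.14 in transgenic mice (limma, adjusted p = 0.0121).

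Grin2a encodes GluN2A, the glutamate-binding subunit that joins NMDA receptors as synapses mature. It was read by 1 probe set, 1421616_PM_at, with tail ratios of 1.88, 0.69 and 1.12 in control mice and 0.64, 0.37 and 0.28 in transgenic mice. Each control mouse was above each transgenic mouse, by a narrow margin between control mouse 2 and transgenic mouse 1. The control mean was 1.23 ± 0.21 (SE, n = 3), a 2.34-fold higher signal in ELUTED than in WASH (limma, adjusted p = 0.00191). The transgenic mean of 0.43 ± 0.21 did not pass (limma, adjusted p = 0.142). Its WASH values of 6.32, 6.31 and 6.43 in control mice and 5.70, 6.37 and 6.23 in transgenic mice were close to the nonspecific level, which they exceeded on 3 of 3 and 2 of 3 arrays. The ELUTED values of 8.20, 7.00 and 7.55 in control mice and 6.34, 6.74 and 6.51 in transgenic mice exceeded it on all 6.

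**Figure D2:**
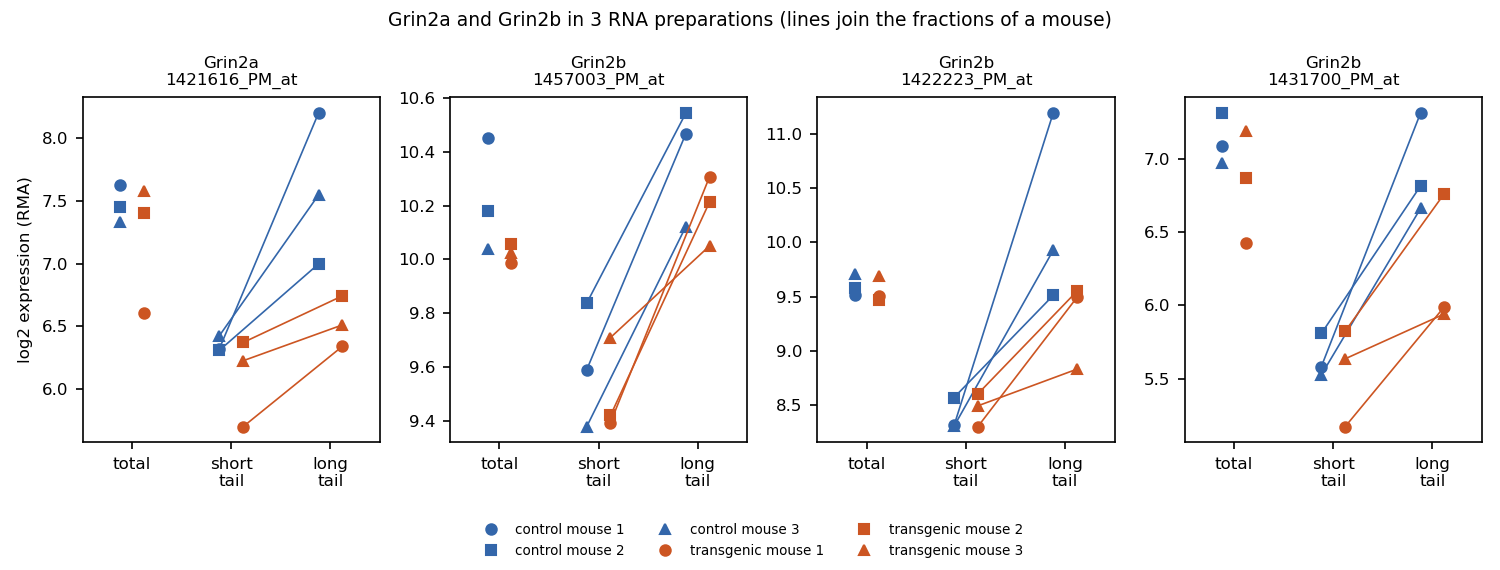
Log2 expression (vertical axis, own scale in each panel) of Grin2a and of the 3 Grin2b probe sets in total RNA and in the RNA with short and with long tails, with 1 symbol per mouse and lines joining the fractions of a mouse. Every line rises from the short-tail to the long-tail fraction, and for Grin2a the 3 control mice end between 7.00 and 8.20 and the transgenic mice between 6.34 and 6.74.

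Gria2 encodes GluA2, the AMPA subunit whose edited form keeps calcium out of the channel. Its 3 probe sets did not agree on a direction. Probe set 1453098_PM_at had tail ratios of 0.36, 0.58 and 0.76 in control mice and 0.60, 0.40 and 0.26 in transgenic mice, all above 0. Probe set 1434146_PM_at had -1.09, -0.79 and -0.46 in control mice and -0.59, -0.83 and -0.37 in transgenic mice, all below 0. Each probe set thus separated the fractions the same way in every mouse of both genotypes, in opposite directions. The control means were 0.57 ± 0.14 (SE, n = 3; limma, adjusted p = 0.00742) and -0.78 ± 0.16 (limma, adjusted p = 0.0038). The transgenic means were 0.42 ± 0.14 (limma, adjusted p = 0.0458) and -0.59 ± 0.16 (limma, adjusted p = 0.0251). Without control mouse 3 the control mean of 1453098_PM_at, 0.47, no longer passed (limma, adjusted p = 0.0535).

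The probe set of Gria2 with the highest mean, 1421970_PM_a_at, showed neither. It read 11.12, 11.09 and 11.12 in WASH and 9.75, 11.10 and 10.96 in ELUTED in control mice 1, 2 and 3. In transgenic mice it read 11.03, 11.01 and 10.98 in WASH and 11.08, 10.96 and 10.98 in ELUTED. A single array, the ELUTED array of control mouse 1, was low, and the other 5 tail ratios lay between -0.15 and 0.05. The control mean of -0.50 ± 0.24 did not pass (SE, n = 3; limma, adjusted p = 0.0987), and it was -0.07 without control mouse 1. Without control mouse 2 it passed, at -0.76 (limma, adjusted p = 0.0315).

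Within a mouse, 1453098_PM_at exceeded 1434146_PM_at in tail ratio by 1.18 ± 0.29 (SD over 6 mice), in 6 of 6 mice. An exact sign-flip permutation test over the 6 mice, two-sided, gave p = 0.03125, the smallest it can give, and 0.125 after adjustment over the 12 pairs of probe sets of a gene that were compared. None of the 12 pairs passed after adjustment. With 6 mice a pair could pass only if most of the 12 had this smallest p, so this does not show that the probe sets agree. The comparison of probe sets was added after the values were seen. Which part of the Gria2 transcript each probe set reads, and whether they read different 3′ ends, was not tested.

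**Figure D3:**
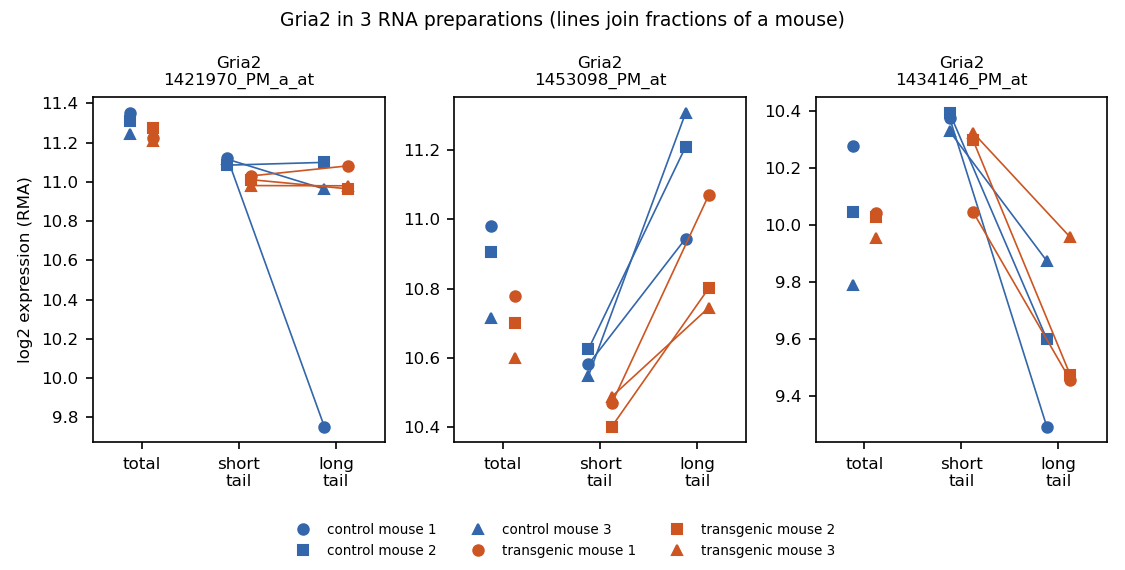
Log2 expression (vertical axis, own scale in each panel) of the 3 Gria2 probe sets in total RNA and both fractions, with 1 symbol per mouse and lines joining the fractions of a mouse. The lines rise for 1453098_PM_at and fall for 1434146_PM_at in all 6 mice, and 1421970_PM_a_at is level except for control mouse 1, which drops from 11.12 to 9.75.

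Gria3 encodes GluA3, which forms the second main AMPA receptor of the adult forebrain together with GluA2. Its probe set with the highest mean, 1420563_PM_at, had tail ratios of 0.37, 0.53 and 0.57 in control mice and 0.50, 0.41 and 0.27 in transgenic mice. All 6 were above 0, and the genotypes overlapped. The means were 0.49 ± 0.12 in control mice (SE, n = 3; limma, adjusted p = 0.0086) and 0.39 ± 0.12 in transgenic mice (limma, adjusted p = 0.0405). Without control mouse 3 the control mean was 0.45 and did not pass (limma, adjusted p = 0.0517). The second probe set, 1434728_PM_at, had 0.14, -0.02 and 0.31 in control mice and -0.09, -0.08 and 0.07 in transgenic mice, and neither mean passed. After quantile normalization the control mean of this probe set was 0.50, against 0.14, and passed (limma, adjusted p = 0.0124). The first exceeded the second by 0.39 ± 0.18 (SD) in 6 of 6 mice (exact sign-flip permutation test, two-sided, p = 0.03125, adjusted 0.125).

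For Gria1 and Gria4 no mean tail ratio passed. Gria1 encodes GluA1, the AMPA subunit whose insertion and phosphorylation accompany synaptic potentiation, and Gria4 encodes GluA4, which is found mainly in interneurons of the forebrain. Gria1 1448972_PM_at, at 11.63, 11.68 and 11.67 in total RNA of control mice, had tail ratios between -0.12 and 0.11 in control mice and between 0.04 and 0.20 in transgenic mice. The second Gria1 probe set, 1435239_PM_at, ranged from -0.32 to 0.64 in control mice, where control mouse 1 was the high value, and from -0.35 to -0.18 in transgenic mice. Gria4 1435722_PM_at ranged from -0.40 to 0.33 in control mice and from -0.39 to -0.01 in transgenic mice, and Gria4 1421351_PM_at from -0.26 to 0.03 and from -0.41 to -0.04. The lowest adjusted p was 0.244, for Gria4 1421351_PM_at in transgenic mice (limma). Other scalings moved some of these means. Gria1 1435239_PM_at passed in transgenic mice, at -0.38, with the tail ratios of each mouse scaled to the same SD (limma, adjusted p = 0.0453). After quantile normalization the control means of Gria1 1435239_PM_at and Gria4 1421351_PM_at were 0.50 and 0.35, against 0.10 and -0.07, and did not pass. The remaining Gria4 probe set, 1440891_PM_at, averaged 4.25, was above the nonspecific level on none of the 18 arrays and was not tested.

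Grin3a encodes GluN3A, a glycine-binding subunit that lowers calcium entry through NMDA receptors and is most abundant in young brain. It held the lowest mean tail ratio of the 18 probe sets in transgenic mice. For 1458378_PM_at the tail ratios were -0.74, -0.32 and 0.04 in control mice and -0.79, -0.76 and -0.62 in transgenic mice. The transgenic mice were close together, while the control mice ran from beside them to 0. The lowest control value, that of control mouse 1, rests partly on signal at background. On its ELUTED array this probe set read 6.46 against a nonspecific level of 7.30. The transgenic mean of -0.72 ± 0.16 passed (SE, n = 3; limma, adjusted p = 0.0142), and the control mean of -0.34 did not (limma, adjusted p = 0.0915), except without control mouse 3, at -0.53 (limma, adjusted p = 0.0408), and with each array centred on its median, at -0.46 (limma, adjusted p = 0.04). For 1438866_PM_at the tail ratios were 0.49, -0.50 and 0.20 in control mice and -0.57, -0.69 and -0.51 in transgenic mice. Every transgenic mouse was below every control mouse, and control mouse 2 came closest to them. The transgenic mean was -0.59 ± 0.18 (limma, adjusted p = 0.0415), and the control mean was 0.06 (limma, adjusted p = 0.781). On ELUTED arrays this probe set was above the nonspecific level in 2 of 3 control and 2 of 3 transgenic mice. Control mouse 1, with the highest tail ratio, read 7.04 there against a nonspecific level of 7.30, so its value and the separation of the genotypes rest partly on signal at background. The third probe set, 1436575_PM_at, which has the highest mean, was below 0 in all 6 mice, between -0.56 and -0.09, and passed in neither genotype (limma, adjusted p = 0.0882 in control mice and 0.0617 in transgenic mice). It did pass in control mice with each array centred on its median, at -0.42 (limma, adjusted p = 0.0334). After quantile normalization its control mean changed sign, to 0.11, and did not pass (limma, adjusted p = 0.477). In transgenic mice it passed under 7 alternatives (limma, adjusted p from 0.00566 to 0.0423). Of these, the mean over all Grin3a probe sets was -0.57, and the rest gave -0.49 to -0.39 for this probe set.

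Grin2c and Grin2d encode GluN2C and GluN2D, which in the adult brain are known mainly from cerebellum and from brainstem and interneurons. Grin2d was close to background here, and Grin2c was higher, with a mean of 7.70 over the 18 arrays. Grin2c 1449245_PM_at read 7.61, 7.78 and 7.62 in total RNA of control mice and 7.02, 7.51 and 7.70 in that of transgenic mice. It was above the nonspecific level on 3 of 3 and 1 of 3 of these arrays, and on every WASH and ELUTED array. Its tail ratios ran from -0.41 to 0.05 over the 6 mice. Grin2d 1421393_PM_at read between 5.88 and 6.23 on the total RNA arrays and was above the nonspecific level on none of them. Its tail ratios ran from -0.13 to 0.62, and neither gene passed in either genotype.

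Ordered by the control mean at the probe set with the highest mean of each gene, tail ratios ran from Grin2a (1.23) and Grin2b (0.78) through Gria3 (0.49), Grin2d (0.22), Gria1 (0.01), Gria4 (-0.06), Grin2c (-0.16) and Grin3a (-0.30) to Gria2 (-0.50). The place of Gria2 rests on 1 array, since its mean was -0.07 without control mouse 1, and on the choice of probe set. Of neighbours in this order, Grin2b and Gria3 alone did not overlap between control mice. In transgenic mice the order began with Grin2b (0.68), Grin2a (0.43), Gria3 (0.39) and Gria1 (0.15), and Gria3 and Gria1 alone did not overlap. Tail ratios were above 0 in all 6 mice for 6 of 18 receptor probe sets, against 26.4% of all probe sets tested. They were below 0 in all 6 for 2 of 18, against 36.6%.

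In transgenic mice 7 of the 18 probe sets passed, 4 above 0 and 3 below. Over all probe sets 31.8% passed, 12.7% above and 19.1% below. The 4 above were Gria2 1453098_PM_at, Gria3 1420563_PM_at and 2 of the 3 Grin2b probe sets, and the 3 below were Gria2 1434146_PM_at and 2 of the 3 Grin3a probe sets. The median was -0.01 over the receptor probe sets and -0.11 over all. These calls were less stable than those of control mice. Without transgenic mouse 1, or without transgenic mouse 2, 0 of the 18 and 0% of all probe sets passed. Without transgenic mouse 3, or without control mouse 3, 4 of the 18 passed. Without control mouse 1, or with each genotype fitted alone, 10 passed, and Grin2a (limma, adjusted p = 0.0207 and 0.0116) and Grin2b 1422223_PM_at (limma, adjusted p = 0.00364 and 0.000766) were among them. The split was 2 above and 4 below with each array centred on its median, and 3 above and 0 below after quantile normalization. These scalings moved the median of all transgenic tail ratios by -0.09 and 0.12, and the share of passing probe sets that were above 0 from 40% to 29% and 55.4%.

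In total RNA no receptor subunit differed between the genotypes by the test. Of the 18 probe sets 0 passed, and of all probe sets 0% passed (limma). At an unadjusted p under 0.05 there were 2 of the 18 and 2935 of 27022. The median difference, transgenic minus control, was -0.12 over the receptor probe sets and 0.02 over all. Grin3a 1458378_PM_at had the smallest p. It read 7.01, 6.73 and 6.73 in control mice and 7.34, 7.35 and 7.20 in transgenic mice, all 3 transgenic mice above all 3 control mice. The difference was 0.47 ± 0.12 (SE, n = 3 and 3; limma, adjusted p = 0.423). All 6 values were below the nonspecific level of their arrays. Grin3a 1436575_PM_at, well above that level, read 9.51, 9.67 and 9.55 in control mice and 9.85, 9.81 and 9.69 in transgenic mice, again without overlap, and differed by 0.21 (limma, adjusted p = 0.487).

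The AMPA subunit Gria3 had lower mean values in total RNA of transgenic mice at both probe sets, and neither difference passed. At 1434728_PM_at control mice read 10.33, 10.19 and 9.84 and transgenic mice 9.56, 9.76 and 9.83. The lowest control mouse and the highest transgenic mouse were nearly equal. The difference was -0.40 ± 0.15 (SE, n = 3 and 3; limma, adjusted p = 0.432). At 1420563_PM_at control mice read 11.30, 11.30 and 11.19 and transgenic mice 10.95, 11.13 and 11.08, a difference of -0.21 (limma, adjusted p = 0.488). All transgenic mice were higher than all control mice for 2 of the 18 probe sets, both of Grin3a, against 11.1% of all probe sets. All were lower for 3 of 18, both of Gria3 and Gria4 1435722_PM_at, against 7.3%.

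**Figure D4:**
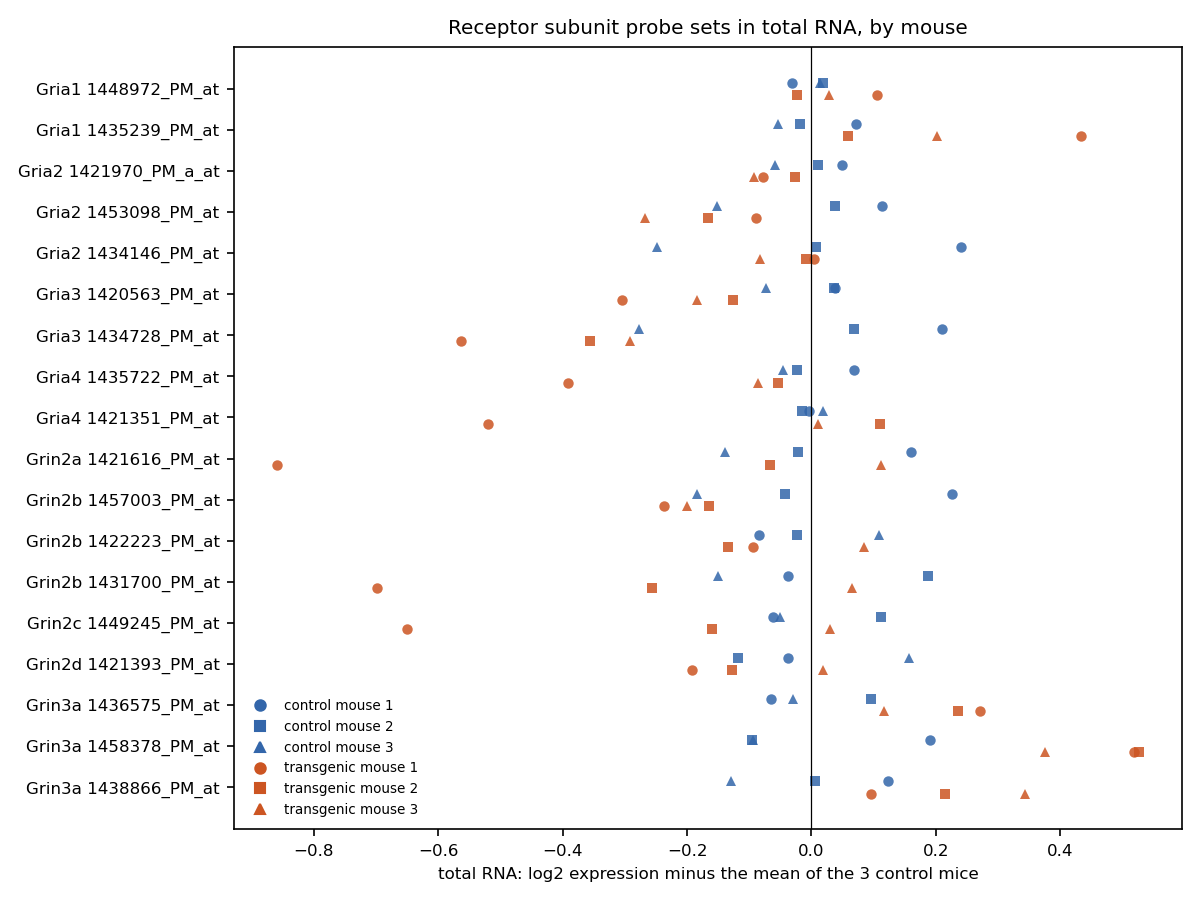
Total RNA level of the 18 receptor probe sets by mouse, as log2 expression minus the mean of the 3 control mice (horizontal axis), blue for control and orange for transgenic mice. Both Gria3 probe sets have all transgenic mice left of all control mice, Grin3a 1436575_PM_at and 1458378_PM_at have them to the right, and transgenic mouse 1 is the leftmost point for 9 of the 18.

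In the short-tail fraction 0 of 18 receptor probe sets and 0% of all probe sets passed between the genotypes (limma), with 3 of the 18 and 4466 of 27022 at an unadjusted p under 0.05. Grin3a 1458378_PM_at read 7.21, 7.31 and 7.27 in control mice and 7.57, 7.91 and 7.50 in transgenic mice. The groups did not overlap, and all 6 values were above the nonspecific level. The difference was 0.40 ± 0.12 (SE, n = 3 and 3; limma, adjusted p = 0.205). Transgenic mice were all higher for 3 of the 18, Gria1 1435239_PM_at and 2 of Grin3a, against 14.1% of all probe sets. They were all lower for 4 of the 18, the 3 of Gria2 and Gria3 1434728_PM_at, against 10.5%. The Gria2 differences were small, from -0.14 to -0.10.

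On the long-tail arrays 0 of 18 and 0% of all probe sets passed (limma), with 2 of the 18 and 4454 of 27022 at an unadjusted p under 0.05. The median difference of the receptor probe sets was -0.27, against 0.01 over all probe sets. The Grin2a values already given did not overlap, with a difference of -1.05 ± 0.30 (SE, n = 3 and 3; limma, adjusted p = 0.278), 2.07-fold lower in transgenic mice. Grin2b 1431700_PM_at read 7.31, 6.81 and 6.66 in control mice and 5.99, 6.76 and 5.94 in transgenic mice. Transgenic mouse 2 lay among the controls and the other two below them, and the difference was -0.70 ± 0.28 (limma, adjusted p = 0.294). The value of control mouse 1, the highest, lay beside the nonspecific level of its array, 7.30. Grin2b 1422223_PM_at read 11.19, 9.51 and 9.93 in control mice and 9.49, 9.55 and 8.83 in transgenic mice, with control mouse 1 far above the rest, a difference of -0.92 ± 0.42 (limma, adjusted p = 0.311). Grin2b 1457003_PM_at differed by -0.19 only (limma, adjusted p = 0.556). None of the 18 had all transgenic mice higher, against 14.1% of all probe sets, and 3 had all lower (Gria3 1420563_PM_at, Gria4 1421351_PM_at and Grin2a), against 10.3%. Without control mouse 2, 8.58% of all probe sets and 1 of the 18 passed, and that 1 was Grin2a, at -1.34 (limma, adjusted p = 0.0243). Without control mouse 1 the Grin2a difference was -0.74 (limma, adjusted p = 0.353).

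**Figure D5:**
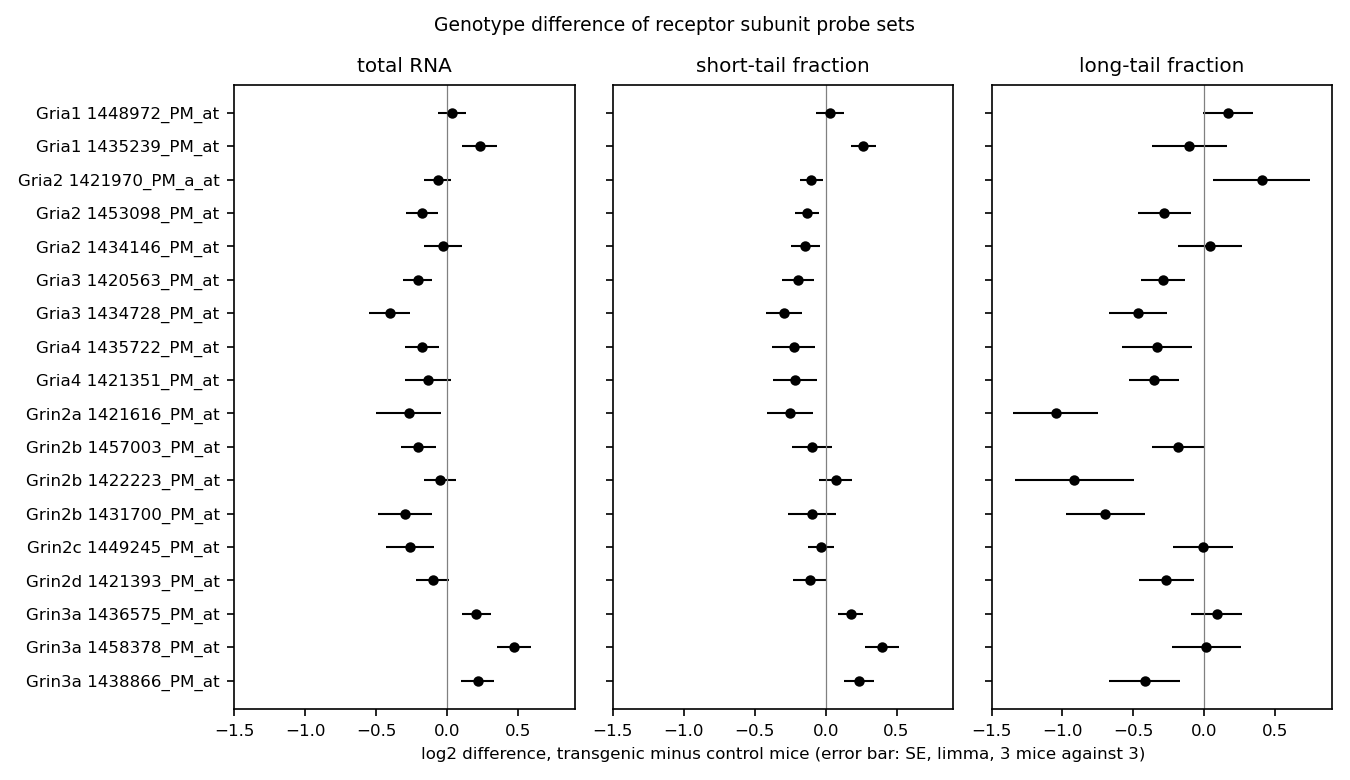
Difference between transgenic and control mice in log2 expression (horizontal axis, points, with SE from limma as bars, 3 mice against 3) for the 18 receptor probe sets in total RNA, the short-tail and the long-tail fraction. The points furthest from 0 are Grin2a (-1.05), Grin2b 1422223_PM_at (-0.92) and Grin2b 1431700_PM_at (-0.70), all in the long-tail fraction, and none of the differences passed.

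The tail ratio itself was compared between the genotypes in the same model, and 0 of 18 receptor probe sets and 0% of all probe sets passed (limma). At an unadjusted p under 0.05 there were 3 of the 18 and 3621 of 27022. The 3 were Grin2a (-0.80 ± 0.30), Grin2b 1431700_PM_at (-0.60 ± 0.26) and Grin3a 1438866_PM_at (-0.66 ± 0.26; SE, n = 3 and 3; limma, adjusted p = 0.371 for each). These were also the 3 of 18 with every transgenic mouse below every control mouse, against 8.57% of all probe sets, and none had every transgenic mouse above, against 9.66%. Without control mouse 2, 9.2% of all probe sets passed, and 2 of the 18 with them, Grin2a at -1.07 (limma, adjusted p = 0.045) and Grin3a 1438866_PM_at at -0.94 (limma, adjusted p = 0.0295). Without control mouse 1 these were -0.47 and -0.44 (limma, adjusted p = 0.555 and 0.604). Grin2b 1422223_PM_at had the largest difference, -0.99 ± 0.46, with control mouse 1 furthest from the rest (limma, adjusted p = 0.379). The spread of the tail ratio over the whole array, given above, was also wider in control mice 1 and 3 than in transgenic mice. With the tail ratios of each mouse scaled to the same SD, the difference was -0.40 for Grin2a, -0.20 for Grin2b 1431700_PM_at and -0.37 for Grin2b 1422223_PM_at, closer to 0 than before (limma, adjusted p = 0.381, 0.682 and 0.514). It was -0.75 for Grin3a 1438866_PM_at (limma, adjusted p = 0.303), and 0 of 18 passed.

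Transgenic mouse 1 had the lowest total RNA value of the 6 mice for 9 of 18 receptor probe sets, against 27.1% of all probe sets. It was also lowest for 9 of 18 in WASH, against 29%, and for 8 of 18 in ELUTED, against 12.5%. Grin2a showed it in total RNA, at 6.61 in transgenic mouse 1 against 7.40 and 7.58 in the other transgenic mice and 7.63, 7.45 and 7.33 in control mice. Without that mouse the total RNA difference of Grin2a was 0.023 rather than -0.27. Grin2a was above the nonspecific level of total RNA in 2 of 3 control mice and 1 of 3 transgenic mice, and that level was 7.51 for transgenic mouse 1, so these differences rest partly on signal at background. Some cell type markers also stood apart in the total RNA of this mouse. The mean of 5 astrocyte markers in total RNA was 9.83, 9.78 and 9.73 in control mice and 10.89, 10.34 and 9.88 in transgenic mice, with transgenic mouse 1 highest for 4 of the 5. For Slc1a2 that mouse was lowest, at 12.65 against 12.67 to 12.75 in the others. Gfap read 12.75 in that mouse, 12.17 and 10.51 in transgenic mice 2 and 3, and 10.47 to 10.58 in control mice. Slc1a3 was above the nonspecific level on 2 of the 6 arrays. The mean of 4 microglial markers was 8.57, 8.56 and 8.53 in control mice and 9.21, 8.88 and 8.56 in transgenic mice. Transgenic mouse 1 was highest for 3 of the 4. P2ry12 read 9.25 in that mouse and 9.14 to 9.46 in control mice, and Aif1 was above the nonspecific level on 1 of the 6 arrays. The mean of 4 neuronal markers was 11.83, 11.76 and 11.70 in control mice and 11.50, 11.71 and 11.62 in transgenic mice, with that mouse lowest for all 4. In WASH it was lowest for 2 of the 4 and in ELUTED for 0, where the means of the 4 were 11.58, 11.55 and 11.51 in transgenic mice. Both excitatory markers were lowest in that mouse in all 3 preparations, with a mean in total RNA of 7.92 against 8.35 to 8.69 in the other mice, and Neurod6 was near or below the nonspecific level. Slc17a7 alone read 11.13 in total RNA of that mouse, against 11.37 to 11.49 in the others. In WASH it read 11.41 there, nearly the same as in control mouse 3. The part of these cell types in the receptor values was not tested.

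The proteins that assemble, anchor and modulate the receptors were counted as a group. Of 34 such genes 31 were tested, and Cacng4, Shisa8 and Nptxr were matched to no probe set. In each of the 3 preparations and in the genotype difference of the tail ratio, 0 of the 31 passed (limma). In control mice 6 of 31 had a tail ratio above 0 that passed and 7 one below 0, with a median of -0.10. Of all genes 20.5% passed above and 39.9% below, with a median of -0.18, so the share above 0 is near the array's own. Of the 11 AMPA receptor auxiliary subunits, which ride on the channel and slow or shift its gating, 5 passed above and 2 below, with a median of 0.38. Of these 7 Cacng3, Cacng7 and Cnih2 did not pass without control mouse 3, and Cacng3 and Cacng7 did not pass without control mouse 2. Of the 14 proteins of AMPA receptor biogenesis and trafficking, 0 passed above and 5 below, with a median of -0.14, close to the share below 0 and the median of all genes.

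Above 0 in control mice, Shisa9 (0.96 ± 0.25, limma, adjusted p = 0.0109) and Shisa7 (0.82 ± 0.13, limma, adjusted p = 0.00145), single-pass auxiliary subunits, and Cacng2, which encodes stargazin (0.79 ± 0.17, limma, adjusted p = 0.00456), had the largest tail ratios. For Shisa9 the sign depended on the probe set, since the mean over its probe sets was -0.42 and passed below 0 (limma, adjusted p = 0.038). Below 0 were the lipase gene Abhd12 (-1.22 ± 0.26, limma, adjusted p = 0.00504), the phosphoinositide phosphatase gene Sacm1l (-1.09 ± 0.17, limma, adjusted p = 0.00131) and the auxiliary subunit gene Gsg1l (-1.03 ± 0.24, limma, adjusted p = 0.00678). Neither Adar nor Adarb1, the editing enzymes, passed in either genotype, Adarb1 being the one that edits Gria2. Among NMDA receptor partners Grin3b, the other glycine-binding GluN3 subunit, passed above 0 in control mice (0.42 ± 0.13, limma, adjusted p = 0.0247), but not without any 1 of the 3 control mice, nor in 3 of the other alternatives. In transgenic mice 1 of 31 passed above, Cacng3 (0.48), and 4 below, of which Nptx2 (-0.63), Cacng5 (-0.62) and Sacm1l (-0.62) were furthest. Of all genes 6.5% passed above and 20.5% below there. Without transgenic mouse 1 or 2, 0 of the 31 passed there.

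Genes with profiles most like those of a receptor subunit were sought over the 18 arrays among 11973 other genes, each at its probe set with the highest mean. For Gria2 1421970_PM_a_at the highest Pearson correlations were those of Zfp445 (0.97), Norad (0.965), Gatad1 (0.96), Atp2b1 (0.954) and Taf1b (0.954). Of the 18 values of this probe set, 17 lay between 10.96 and 11.35 and the ELUTED array of control mouse 1 at 9.75. For Grin2b 1457003_PM_at, added after the values were seen because Grin1 was matched to none, they were those of Jpx (0.918), 1700128F08Rik (0.914), Uggt2 (0.906), Grip1os1 (0.905) and Zfp280d (0.905). The 18 arrays are 3 preparations of 6 mice, so these values describe the arrays and carry no test.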

How the data were processed

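On each of 18 Affymetrix arrays the authors deposited 1 log2 value per probe set, from RMA according to the submitters' processing notes. No source used here gives its version, and the values cannot show a shift common to most transcripts of a fraction. Per the labels' protocols RNA was amplified before hybridisation, which can distort differences. From 45141 probe sets, 104 controls were left out, and the 27022 with a mean above the 40th percentile (5.95) were tested. Genes came from the annotation given, which is that of the deposited probe set names. The series text names another array, Mouse PrimeView. The models were those of limma 3.58.1 (R 4.3.3) for INPUT, WASH, ELUTED and the tail ratio, with Benjamini-Hochberg adjustment over all 27022. Both genotypes shared 1 estimate of the spread, and each SE given is that of the limma model, not of the 3 mice of a genotype alone. The labels place the fractions in 1 mouse, and deviations of its WASH and ELUTED arrays correlated at -0.07, 0.16 and -0.02 in control mice and 0.72, 0.33 and 0.43 in transgenic mice. The limma p-values set a mean or a difference against the spread between mice. Named were all members and, of their partners, up to 3 in each direction by size among those that passed. Members and lists were chosen with earlier results of these data known. Scripts were tested on simulated data. Array sequences and genome positions were not used here.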

Additional observations from a re-analysis of the deposited data

How the results depend on the processing

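Over 108 values (18 receptor probe sets in 6 comparisons), the alternatives gave 1416 values: other filters, scalings and eBayes settings, the mean over a gene's probe sets, blocks, and each mouse left out. The sign turned in 63, none of them of a value that passed; 31 passing values were lost and 23 gained. Of the 7 probe sets that passed in control mice, 5 did so in every alternative run. For the whole array, the genotype comparison of WASH passed for 0.0278% of probe sets at the 60th percentile filter, 0.0074% after quantile normalization or median centring, 0.00835% of genes by gene means, and 0% to 1.33% without single mice, always with 0 receptor probe sets. ELUTED passed for 0% to 8.58% and the tail ratio difference for 0% to 9.2% of probe sets without single mice, with 0 to 1 and 0 to 2 receptor probe sets and 0 to 1 genes each. Tail ratios in transgenic mice passed for 18.5% after quantile normalization, 53.7% with each genotype fitted alone, 61.1% with each mouse scaled to the same SD and 0% to 50.2% without single mice. Receptor probe sets passing there numbered 4 at the 60th percentile filter, 3 after quantile normalization, 11 with equal SD, and 0 to 10 without single mice; genes numbered 4 with each genotype fitted alone or equal SD and 0 to 4 without single mice. Of the 63 sign changes, 17 were in control tail ratios, 11 in transgenic tail ratios and 13 in the genotype difference of the tail ratio. The genotype comparisons held 13 in ELUTED, 5 in WASH and 4 in total RNA. For example, the ELUTED difference of Gria2 1421970_PM_a_at, 0.40, ran from -0.023 to 0.65 without single mice. The control tail ratios of receptor probe sets changed sign as follows. After quantile normalization Gria4 1435722_PM_at was 0.24, Grin2c 0.056, Grin3a 1436575_PM_at 0.11, Grin3a 1438866_PM_at -0.023 and Gria4 1421351_PM_at 0.35, and in transgenic mice the latter 0.072 and Gria3 1434728_PM_at 0.22. After median centring Gria1 1448972_PM_at was -0.11, Grin3a 1438866_PM_at -0.061 and Gria1 1435239_PM_at -0.023, and with equal SD these last 2 were -0.048 and -0.00631. By gene means Gria1 was -0.062 in transgenic mice. The partner gene Shisa9, which had passed at 0.96 in control mice, was -0.42 by gene means and passed below 0 (limma, adjusted p = 0.038). Without single mice Gria1 1448972_PM_at ran from -0.041 to 0.074, Gria1 1435239_PM_at from -0.17 to 0.31, Gria4 1421351_PM_at from -0.12 to 0.025, Gria4 1435722_PM_at from -0.25 to 0.12 and Grin3a 1438866_PM_at from -0.15 to 0.34 in control mice, and the Grin2a difference in total RNA from -0.46 to 0.023. The cause of these changes was not tested. Same-numbered mice of the 2 genotypes correlated at -0.20 to 0.26 in their deviations, and 10 of 18 arrays correlated best with their own number. These values do not settle whether the numbers pair the genotypes, and the main models did not pair them. With the replicate block, 0 receptor probe sets passed in each genotype comparison, as without it. Without pairing the fractions of a mouse, 7 receptor probe sets passed in control and 7 in transgenic mice, Grin3a 1436575_PM_at gained (adjusted p = 0.0402, limma) and Grin2b 1431700_PM_at lost. Limits are the 3 mice per genotype, a spread shared by genotypes that differ in it, Grin2d and parts of Grin2a, Grin2b and Grin3a close to background, and probe sets of 1 gene that differ in direction.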
